A study of Mus musculus with 6 samples.

Results

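The genes of autophagy and of lysosomal acidification were compared between bone marrow stromal cells (BMSCs) of 18-month-old and 3-month-old mice. The members were chosen by symbol: the numbered Atg genes, the Atp6v genes of the vacuolar proton pump (V-ATPase), the Gabarap and Map1lc3 genes, and 14 further named genes of autophagy and the lysosome. Of 30701 genes with a probe set that names 1 symbol, 58 met this rule, each read from its brightest probe set, and 57 passed the filter on low values. The aged group held 3 Affymetrix arrays of cells from mice of 18 months, and the young group 3 arrays of cells from mice of 3 months. In both groups femurs were crushed and digested with collagenase, and the freed cells were sorted as positive for Sca-1 and CD29 and negative for CD45 and CD11b and then cultured beyond their first passage, so the RNA is that of cultured descendants of the sorted cells. The labels call the arrays biological replicates but name no strain, sex or number of animals, so p-values measure only the spread between these arrays. Expression is given throughout as the values the authors deposited, which were taken to be log2 from their range.

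Autophagy encloses cytoplasm in a double membrane, the autophagosome, and delivers it to the lysosome for degradation. The ULK1 kinase complex starts the process, a lipid kinase complex around beclin marks the site, and ubiquitin-like conjugation enzymes attach ATG8 proteins to the growing membrane. The lysosome is kept acidic by the V-ATPase, whose cytosolic V1 sector hydrolyses ATP and whose membrane V0 sector carries the protons. The MiT/TFE transcription factors, among them TFEB and TFE3, switch on many lysosomal and autophagy genes through a short promoter element. In stromal cells of the marrow, autophagy is known as a route of organelle turnover that bears on self-renewal and bone formation.

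The arrays were alike. Their medians over transcript clusters lay between 5.39 and 5.44 on the log2 scale, and Pearson's r across genes was 0.996 to 0.999 within an age and 0.989 to 0.990 between ages (genes are not independent replicates). Of the negative control probe sets 95% lay below 7.61, and a gene under that value in either age is given by its levels and its call, with no size of change. The plots, the medians and the account of sign changes under other settings still include it. Antigenomic probes, designed to match nothing in the mouse genome, were up to 0.29 higher on the aged arrays, the positive control probe sets had a median difference of -0.15, and that of the negative controls was -0.26, all on the log2 scale and as aged minus young. No source used here says whether the ages were cultured or hybridised together, so age and batch cannot be told apart. In bulk samples fewer cells of a type and less RNA per cell cannot be told apart either.

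More members were lower than higher in aged cells. Of the 57 tested, 24 fell and 7 rose with age and 26 did not pass (limma, Benjamini-Hochberg adjusted p under 0.05 over 20190 genes). Over all genes tested the share that fell was 22.1% and the share that rose 18.4%, 40.6% together, and among the members these shares were 42.1% and 12.3%. The members are mostly bright on the array. Of the 14198 genes tested whose mean lay in the upper 30% of all transcript clusters, named or not, 29.1% fell and 22.3% rose. That cut, 6.53, lies below the negative control limit of 7.61. Of the 51 members above the cut 24 fell and 7 rose. The median difference was -0.04 over the members and 0.01 over all genes tested, and the members ranged from -0.76 to 0.41 on the log2 scale. The aged and young arrays did not overlap in 40 of the 57 members, beside 51.3% of all genes tested.

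Changes were small. Of the 31 members past the test, 17 differed in either direction by more than 0.29, the largest shift of the antigenomic probes. Over all genes tested, 4106 of the 8195 past the test did so. Those probes all shifted upward, by 0.006 to 0.29. The negative controls had a median difference of -0.26, in the direction of most calls. Several lower calls, such as that of Uvrag at -0.18, were smaller than that median. When differences were tested against a minimum of 0.3 on the log2 scale, 7 members passed, all lower in aged cells, beside 4.04% of all genes lower and 5.79% higher. These were Atg14, Atg13, Rb1cc1, Gabarapl1, Atp6v0b, Atp6v1c1 and Atp6v1h. The scaling mattered for small differences. With each array centred on its positive controls, a setting chosen after their shift was seen, the median of all genes moved from 0.01 to 0.13, and 19 members were lower and 20 higher. The 19 were all among the 24, and 13 of the 20 had not passed on the values as deposited. Among these 13, Becn1, Atp6v1f and Atp6v0e also changed sign (limma adjusted p = 0.0409, 0.025 and 0.0108 when centred). The others of the 13 were Ulk2, Atg5, Atg7, Atg9a, Atg4b, Atp6v1e2, Atp6v1g1, Atp6v0a2, Lamp1 and Tfeb (limma adjusted p from 0.000327 to 0.0314 when centred). The plot of differences by role shows every tested member.

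**Figure D1:**
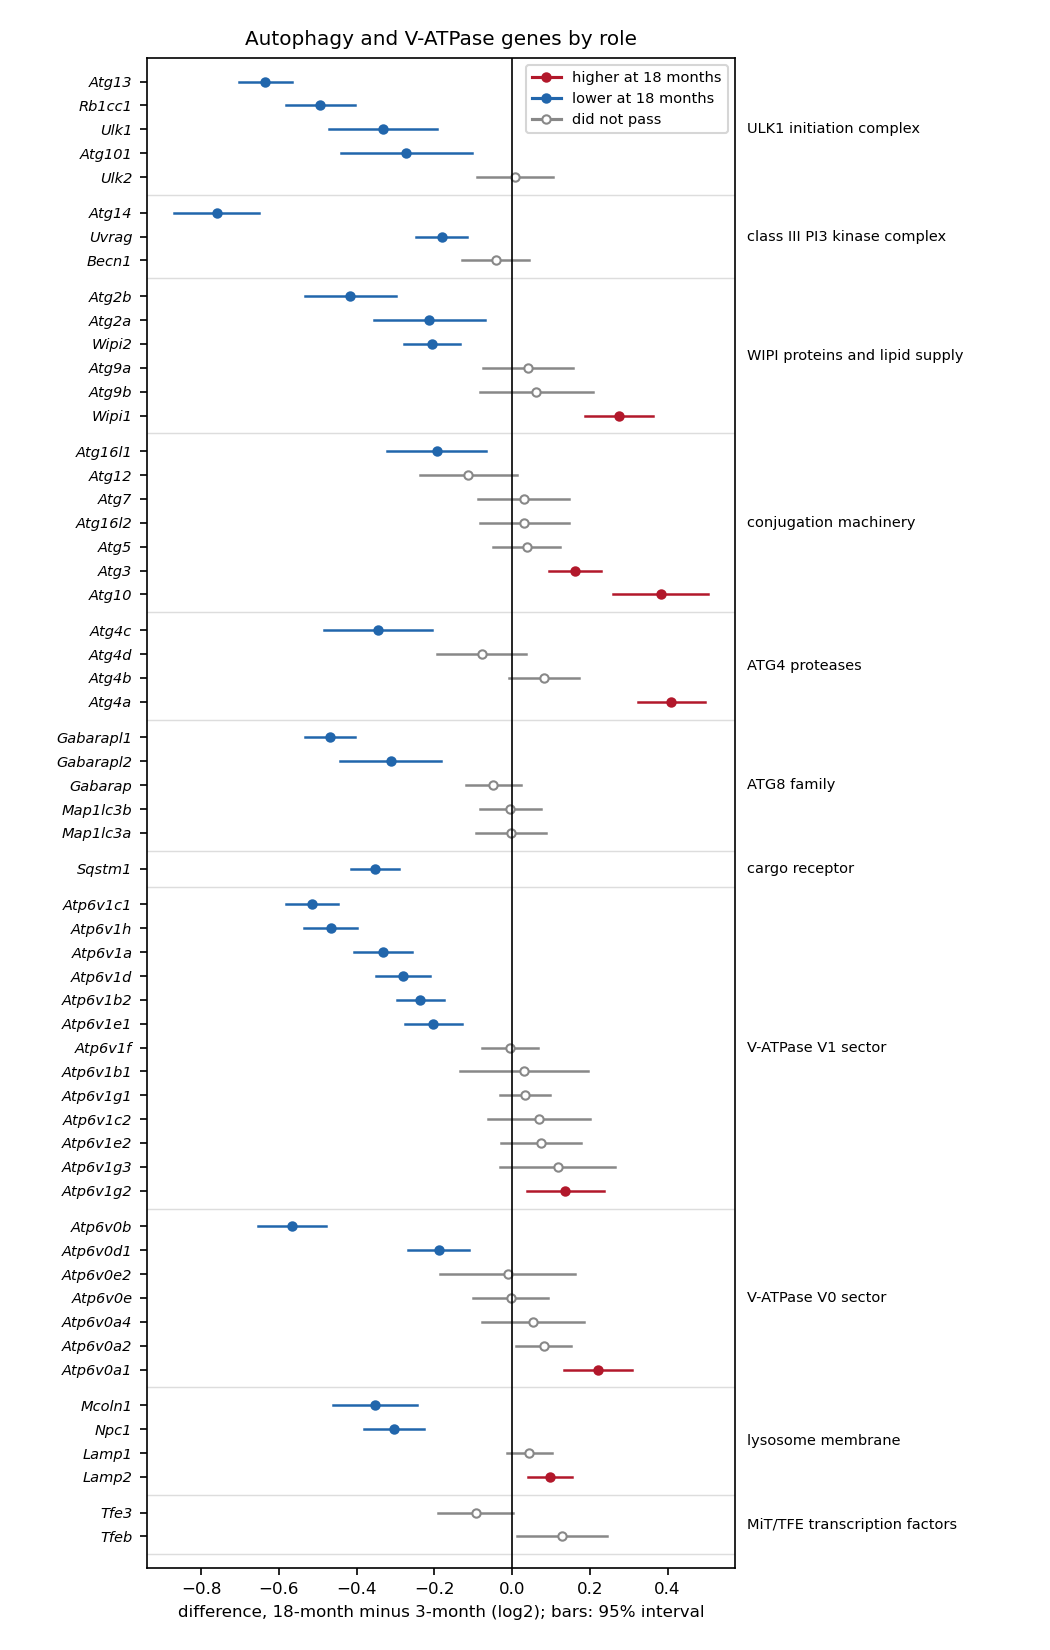
Difference between 18-month and 3-month arrays on the log2 scale (x axis) for each of the 57 tested members (y axis, grouped by role), with 95% intervals; filled blue points were lower and filled red points higher at 18 months, and open grey points did not pass. The lowest difference is that of Atg14 at -0.76 and the highest that of Atg4a at 0.41.

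For the counts by role that follow, 22.1% of all genes tested fell and 18.4% rose. In the ULK1 initiation complex 4 of 5 members fell and none rose. Atg13, the regulatory subunit that links the kinase to its scaffold, had log2 values of 9.03, 9.05 and 9.04 in aged cells, against 9.69, 9.69 and 9.65 in young cells. Every aged array lay below every young array, and the level was 1.55-fold lower in aged cells (difference -0.64, SE 0.029, limma adjusted p = 5.45e-07). Rb1cc1, which encodes the scaffold FIP200, read 8.33, 8.34 and 8.26 in aged and 8.84, 8.77 and 8.80 in young cells. Its groups did not overlap either, and it fell by 0.49 (limma adjusted p = 1.23e-05). Ulk1, the kinase itself, read 9.32, 9.32 and 9.40 in aged cells and 9.82, 9.62 and 9.59 in young cells, where replicate 1 stood highest. It fell by 0.33 (95% interval of the difference -0.47 to -0.19, limma adjusted p = 0.00213). Atg101, which stabilises ATG13, fell by 0.27, and this call was lost without replicate 2 or 3 of the aged or replicate 2 of the young arrays (limma adjusted p = 0.0544, 0.0554 and 0.0559). Ulk2, the paralog of the kinase, was at 7.99 ± 0.01 in aged and 7.99 ± 0.06 in young cells (SD, n = 3 each), with a 95% interval of the difference from -0.09 to 0.11. The interval of Ulk2 lies wholly above that of Ulk1, and the difference between the paralogs was not itself tested.

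The lipid kinase complex held the largest decrease of any member. Atg14, the subunit that directs the complex to sites of autophagosome formation, read 7.91, 7.96 and 7.84 in aged cells, against 8.73, 8.65 and 8.61 in young cells. The groups did not overlap, and the level was 1.69-fold lower in aged cells (difference -0.76, SE 0.048, limma adjusted p = 3.66e-06). Uvrag, which takes the place of ATG14 in a second form of the complex on endosomes, was at 9.75 ± 0.01 in aged and 9.93 ± 0.02 in young cells (SD, n = 3 each). It fell by 0.18, and the call was lost when its dim second probe set was averaged in or when arrays were centred on positive controls (limma adjusted p = 0.524 and 0.0951). Becn1, which encodes beclin 1, the core subunit of both forms, did not pass, at 8.76 ± 0.02 in aged and 8.81 ± 0.05 in young cells (SD, n = 3 each, limma adjusted p = 0.428). The lipid kinase Pik3c3 and its partner Pik3r4, which the rule does not include, did not pass either, with differences of -0.10 and -0.13.

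Members that bind the marked membrane or feed it with lipid moved both ways: 3 of 6 fell and 1 rose. Atg2b, a lipid transfer protein, read 8.53, 8.52 and 8.55 in aged and 9.04, 8.97 and 8.84 in young cells. It fell by 0.42 (limma adjusted p = 0.000218). Its paralog Atg2a fell by 0.21, a call lost after median centring, without replicate 1 or 2 of the aged arrays and when arrays were centred on positive controls (limma adjusted p = 0.0559, 0.0699, 0.0826 and 0.113). Wipi2, which recruits the conjugation machinery, read 9.44, 9.44 and 9.48 in aged cells and 9.69, 9.66 and 9.63 in young cells and fell by 0.21. Wipi1, its paralog, went the other way. It read 9.60 on each of the 3 aged arrays, against 9.37, 9.36 and 9.25 on the young arrays, and rose by 0.27 (95% interval 0.19 to 0.36, limma adjusted p = 0.000438). Atg9a, the lipid scramblase of the vesicles that seed the membrane, did not pass (limma adjusted p = 0.583), and Atg9b lay within the negative control range in both ages at 6.21 and 6.14.

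Among the 7 members of the conjugation machinery 2 rose, 1 fell and 4 did not pass. Atg10, the E2-like enzyme that joins ATG12 to ATG5, read 8.12, 8.21 and 8.11 in aged cells, against 7.81, 7.82 and 7.66 in young cells. All aged arrays were higher, and it rose 1.30-fold (difference 0.38, SE 0.053, limma adjusted p = 0.000454). Atg3, the E2-like enzyme that attaches ATG8 proteins to lipid, read 10.04, 10.02 and 9.99 in aged and 9.84, 9.87 and 9.86 in young cells and rose by 0.16. The E1-like enzyme Atg7, which serves both reactions, and the conjugate members Atg5 and Atg12 did not pass, with differences of 0.03, 0.04 and -0.11. Centred on positive controls, Atg7 and Atg5 passed as higher (limma adjusted p = 0.0153 and 0.00335). Atg12 passed as lower after quantile normalization and without young replicate 3 (limma adjusted p = 0.0461 and 0.0239). Atg16l1, which places the conjugate on the membrane, was lower at 7.35 ± 0.02 in aged than 7.55 ± 0.10 in young cells (SD, n = 3 each), and neither mean left the negative control range. Its call (limma adjusted p = 0.0221) was lost after median centring, when arrays were centred on positive controls, and without any of the 3 aged arrays or replicate 2 of the young ones (limma adjusted p from 0.0609 to 0.146).

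The ATG4 proteases, which trim ATG8 proteins before conjugation and free them afterwards, split by paralog. Atg4a read 8.37, 8.34 and 8.30 in aged cells, against 7.92, 7.95 and 7.91 in young cells, and rose 1.33-fold, the highest difference of any member (0.41, SE 0.038, limma adjusted p = 3.52e-05). It has an annotated pseudogene, Atg4a-ps, so its probe set may read both and its value is uncertain in that respect. Atg4c was lower in aged cells, at 7.11 ± 0.04 against 7.45 ± 0.11 in young cells (SD, n = 3 each, limma adjusted p = 0.00174), with both means within the negative control range. Atg4b and Atg4d did not pass, although their aged and young arrays did not overlap. Atg4b passed as higher after quantile normalization, without young replicate 1 and when centred on positive controls (limma adjusted p = 0.0384, 0.0272 and 0.000468).

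Of the ATG8 family 2 of 5 members fell and none rose. Gabarapl1 read 10.49, 10.49 and 10.45 in aged cells, against 10.92, 10.97 and 10.94 in young cells. The 3 arrays of an age agreed closely and the level was 1.38-fold lower in aged cells (difference -0.47, SE 0.029, limma adjusted p = 2.93e-06). Gabarapl2 read 8.84, 8.73 and 8.64 in aged and 9.10, 9.07 and 8.97 in young cells and fell by 0.31. The microtubule-associated light chain genes, Map1lc3a and Map1lc3b, the usual markers of autophagosomes, did not pass: Map1lc3b was at 8.72 ± 0.03 in aged and 8.73 ± 0.02 in young cells (SD, n = 3 each), with a 95% interval of the difference from -0.08 to 0.07. The intervals of both light chain genes lie wholly above those of Gabarapl1 and Gabarapl2, and the difference between them was not itself tested. Gabarap did not pass (limma adjusted p = 0.263). Sqstm1, which encodes the cargo receptor p62 that hands ubiquitinated proteins to ATG8, read 12.40, 12.40 and 12.45 in aged cells, against 12.76, 12.76 and 12.79 in young cells. It was 1.28-fold lower in aged cells, with no overlap between the groups (limma adjusted p = 1.06e-05). The plot of values by array shows the members outside the V-ATPase that passed the test.

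**Figure D2:**
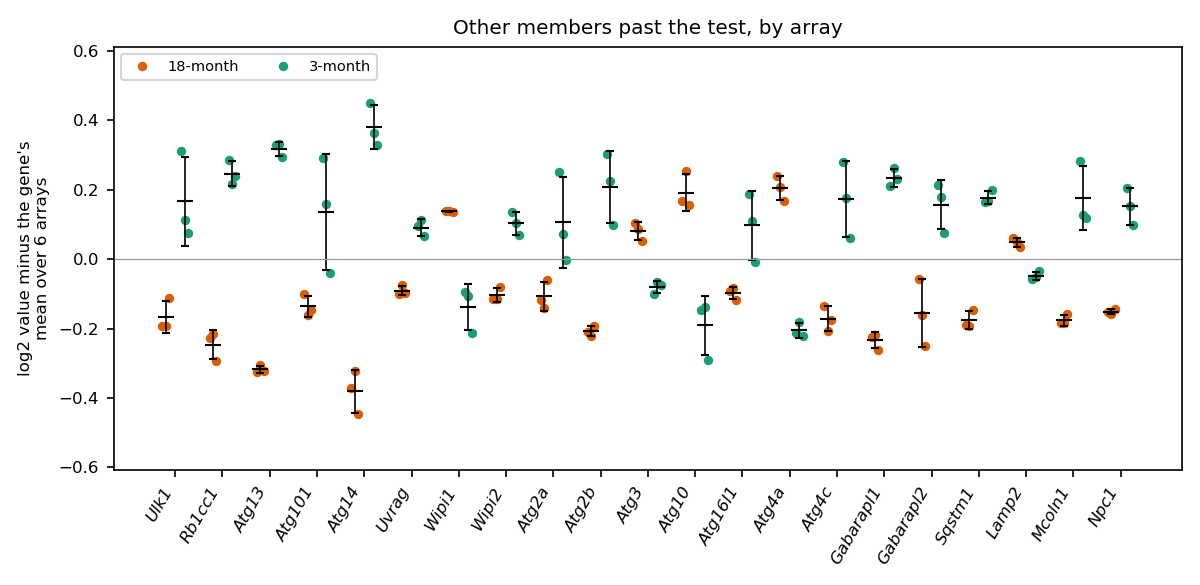
Log2 value of each array minus the gene's mean over the 6 arrays (y axis) for the members outside the V-ATPase that passed the test (x axis), aged arrays in orange and young arrays in green; bars are means ± SD of 3 arrays. Young replicate 1 is the highest young array in several genes, among them Ulk1 at 9.82 and Atg101 at 9.18, while Atg13 and Gabarapl1 show little spread within an age.

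In the V-ATPase 8 of 20 tested subunits fell (40%) and 2 rose (10%), beside 22.1% and 18.4% of all genes tested. Their median difference was -0.0045, beside 0.01 over all genes tested. Over the 14 subunits above the negative control range it was -0.20. Over all genes in the upper 30% of transcript clusters, a lower cut than that range, the median was -0.01. The 8 that fell were 6 of the V1 sector and 2 of the V0 sector, and all 8 calls held whichever array was left out. They are the isoforms made in most tissues. Atp6v1c1, the C subunit that joins the sectors and is involved in their reversible assembly, read 10.74, 10.68 and 10.71 in aged cells, against 11.20, 11.23 and 11.24 in young cells. It was 1.43-fold lower in aged cells (difference -0.51, SE 0.029, limma adjusted p = 1.84e-06). Atp6v1h, a regulatory subunit of the same interface, read 9.65, 9.63 and 9.61 in aged and 10.12, 10.10 and 10.06 in young cells. The groups stood clear of each other and the level was 1.38-fold lower in aged cells (limma adjusted p = 3.9e-06). Atp6v1a, the catalytic subunit, read 10.25, 10.24 and 10.32 in aged cells and 10.62, 10.62 and 10.57 in young cells and fell by 0.33 (limma adjusted p = 5.57e-05). Its partner in the catalytic ring, Atp6v1b2, fell by 0.24. Atp6v1d of the central stalk and Atp6v1e1 of the peripheral stalks fell by 0.28 and 0.20. Other stalk subunits above the negative control range did not pass. Atp6v1f was at 8.92 ± 0.01 in aged and 8.93 ± 0.02 in young cells and Atp6v1g1 at 10.47 ± 0.01 in aged and 10.43 ± 0.03 in young cells (SD, n = 3 each), and Atp6v1e2, the E isoform of testis, at 7.86 ± 0.06 in aged and 7.79 ± 0.02 in young cells (SD, n = 3 each).

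The V0 sector held decreases and an increase. Atp6v0b, a proteolipid of the proton-carrying ring, read 10.04, 10.03 and 10.07 in aged cells, against 10.69, 10.56 and 10.59 in young cells, and was 1.48-fold lower in aged cells (difference -0.57, SE 0.038, limma adjusted p = 5.26e-06). Atp6v0d1, which caps the ring, fell by 0.19. Centred on positive controls, Atp6v0d1 and Atp6v1e1 no longer passed (limma adjusted p = 0.13 and 0.114), and 6 subunits were lower. Atp6v0a1, an isoform of the large a subunit that places the pump on a given membrane, read 9.75, 9.74 and 9.72 in aged cells, against 9.59, 9.48 and 9.47 in young cells. It rose 1.17-fold (limma adjusted p = 0.00158). The a2 isoform Atp6v0a2 did not pass, with a difference of 0.08 (95% interval 0.01 to 0.15, limma adjusted p = 0.0675). It passed as higher after quantile normalization, without young replicate 1 and when centred on positive controls (limma adjusted p = 0.00619, 0.0135 and 0.000327). The a3 isoform goes by the symbol Tcirg1, falls outside the rule and is known for its part in osteoclasts. It was at 9.999 ± 0.036 in aged and 9.178 ± 0.048 in young cells (SD, n = 3 each) and rose 1.77-fold (limma adjusted p = 4.05e-07). Thus Atp6v0a1 and Tcirg1 were higher in aged cells on the values as deposited. Atp6v0b, Atp6v0d1 and the passing V1 subunits above the negative control range were lower. Atp6v0b is the only ring proteolipid among the members, so the ring is read from that gene alone. The V1 subunit Atp6v1g2, within the negative control range, was higher.

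Apart from Atp6v1e2, isoforms known from specialised tissues were dim. Atp6v1b1, Atp6v1c2, Atp6v1g2, Atp6v1g3, Atp6v0a4, Atp6v0d2 and Atp6v0e2 lay within the negative control range in both ages. Among them only Atp6v1g2 passed, higher at 7.37 ± 0.01 in aged than 7.23 ± 0.04 in young cells (SD, n = 3 each). That call was lost after quantile normalization, with the replicate number as a block and without any of the 3 aged arrays or replicate 2 of the young ones (limma adjusted p from 0.0507 to 0.119). Atp6v0d2, the d isoform of osteoclasts, did not pass the filter at 4.43 ± 0.04 in aged and 4.38 ± 0.02 in young cells (SD, n = 3 each).

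**Figure D3:**
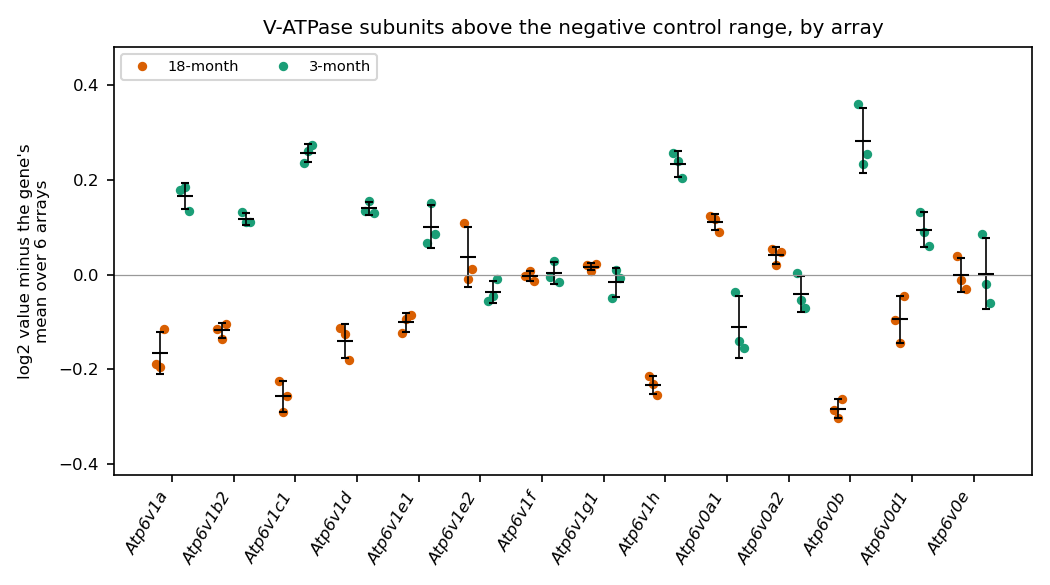
Log2 value of each array minus the gene's mean over the 6 arrays (y axis) for the 14 V-ATPase subunits above the negative control range (x axis), aged arrays in orange and young arrays in green; bars are means ± SD of 3 arrays. In 8 subunits every aged array lies below every young array, and in Atp6v0a1 and Atp6v0a2 every aged array lies above.

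Of the lysosome membrane members, Mcoln1 and Npc1 fell and Lamp2 rose. Mcoln1, the calcium channel TRPML1 that releases lysosomal calcium, read 9.07, 9.07 and 9.10 in aged cells, against 9.54, 9.39 and 9.38 in young cells. It was 1.28-fold lower in aged cells (difference -0.35, SE 0.047, limma adjusted p = 0.000336). Npc1, which exports cholesterol from the lysosome, read 10.14, 10.14 and 10.15 in aged and 10.50, 10.45 and 10.39 in young cells and was 1.23-fold lower in aged cells. The glycoproteins that line the membrane differed by 0.10 or less. Lamp2 read 12.67, 12.66 and 12.64 in aged cells, against 12.55, 12.55 and 12.57 in young cells, and rose by 0.10, a call lost without trend in the variance, with the replicate number as a block and without replicate 1 or 2 of the aged arrays (limma adjusted p = 0.0545, 0.0521, 0.071 and 0.0539). Lamp1 was at 12.93 ± 0.02 in aged and 12.89 ± 0.01 in young cells (SD, n = 3 each) and did not pass (limma adjusted p = 0.21). The transcription factor genes did not pass, with Tfeb at 7.54 ± 0.03 in aged and 7.41 ± 0.08 in young cells and Tfe3 at 8.05 ± 0.02 in aged and 8.14 ± 0.06 in young cells (SD, n = 3 each, limma adjusted p = 0.0763 and 0.119). Both depended on the scaling and on a young array: Tfeb passed as higher after median centring, when centred on positive controls and without young replicate 3 (limma adjusted p = 0.043, 0.0174 and 0.0125), and Tfe3 as lower after quantile normalization and without young replicate 3 (limma adjusted p = 0.03 and 0.0311). Tfeb lay within the negative control range in both ages. Mitf, the founding member of that family, was higher in aged cells at 8.03 ± 0.03 against 7.45 ± 0.16 in young cells, a young level within that range (limma adjusted p = 0.00025).

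Because TFEB and its relatives bind an E-box, the promoters of the members were searched for it. RefSeq promoter windows of build GRCm38.p6, from 250 bases before to 50 after a start site, were at hand for 46 of the 58 members. The letters searched were CACGTG, its longer form TCACGTGA, and the palindromic core of the lysosomal CLEAR element, which adds 1 base to each end of TCACGTGA. Each reads the same on both strands, and each longer form contains the shorter ones. CACGTG was in a window of 10 of the 46 members (21.7%), beside 8.09% of all genes with a window and 10.6% of those tested. In the list of lysosomal hydrolases described below, CACGTG was in 7 of 29 genes with a window (24.1%) and TCACGTGA in 1 (3.45%). TCACGTGA was in 5 of 46 (10.9%), beside 1.12% of all genes and 1.74% of those tested, and the CLEAR core was in none, beside 0.37% of all genes. By call, CACGTG was in 5 of 18 members that fell, 1 of 7 that rose and 4 of 21 that did not pass. A match is a description of letters and not a binding site. The 250 bases before the start site are shown for 3 of the 5 members with a match that fell (Atp6v0b, Atp6v1a, Mcoln1), for the one that rose (Atg3) and for Lamp1, which has 4 matches and did not pass. They are in RefSeq's GRCm38.p6, with CACGTG in capitals, for Atp6v0b at chr4:117887330-117887579 on the minus strand, Atp6v1a at chr16:44139260-44139509 on the minus strand, Mcoln1 at chr8:3500269-3500518 on the plus strand, Atg3 at chr16:45158579-45158828 on the plus strand and Lamp1 at chr8:13158911-13159160 on the plus strand.
Atp6v0b: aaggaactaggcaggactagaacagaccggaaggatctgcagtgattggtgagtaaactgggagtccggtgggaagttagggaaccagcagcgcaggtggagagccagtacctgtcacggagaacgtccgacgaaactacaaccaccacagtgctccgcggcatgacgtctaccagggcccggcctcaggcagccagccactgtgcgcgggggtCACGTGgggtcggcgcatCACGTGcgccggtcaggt
Atp6v1a: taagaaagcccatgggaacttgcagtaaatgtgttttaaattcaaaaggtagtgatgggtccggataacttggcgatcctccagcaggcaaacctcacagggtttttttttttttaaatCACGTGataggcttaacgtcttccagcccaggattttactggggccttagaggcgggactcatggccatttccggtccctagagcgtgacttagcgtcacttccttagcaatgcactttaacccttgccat
Mcoln1: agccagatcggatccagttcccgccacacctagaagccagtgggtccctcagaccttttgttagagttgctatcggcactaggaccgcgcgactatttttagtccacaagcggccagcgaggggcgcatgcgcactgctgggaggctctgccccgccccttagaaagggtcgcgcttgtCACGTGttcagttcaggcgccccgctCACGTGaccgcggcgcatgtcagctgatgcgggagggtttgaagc
Atg3: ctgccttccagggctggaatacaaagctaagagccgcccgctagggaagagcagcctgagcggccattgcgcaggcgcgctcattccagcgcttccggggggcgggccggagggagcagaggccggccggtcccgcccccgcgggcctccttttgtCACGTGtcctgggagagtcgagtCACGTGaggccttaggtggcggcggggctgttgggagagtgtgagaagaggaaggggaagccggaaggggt
Lamp1: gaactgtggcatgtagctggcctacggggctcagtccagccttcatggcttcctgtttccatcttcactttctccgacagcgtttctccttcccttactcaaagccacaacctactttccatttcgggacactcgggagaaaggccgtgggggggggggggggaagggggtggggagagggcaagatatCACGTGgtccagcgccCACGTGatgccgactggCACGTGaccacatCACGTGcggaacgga
In these windows the match nearest the start site lies 18 bases before it in Atp6v0b, 131 in Atp6v1a, 45 in Mcoln1, 71 in Atg3 and 15 in Lamp1, counted from its first base. Genes with the element close to the start thus included members that were lower, higher and not called in aged cells.

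Other genes of the pathway are described by counts over lists that hold no member, except for shared markers. Beside these counts, 22.1% of all genes tested fell and 18.4% rose. Among those in the upper 30% of transcript clusters 29.1% fell and 22.3% rose. Of the 15 selective autophagy receptors and mitophagy genes tested 10 fell (66.7%) and 2 rose (13.3%), with a median difference of -0.26. Nbr1, a cargo receptor related to p62, was at 8.91 ± 0.00 in aged and 9.45 ± 0.01 in young cells (SD, n = 3 each) and was 1.45-fold lower in aged cells (limma adjusted p = 1.43e-06). Bnip3l and Bnip3, mitophagy receptors of the mitochondrial surface, fell by 0.46 and 0.32. Ccpg1, a receptor for the endoplasmic reticulum, and Fkbp8, another at the mitochondrion, rose by 0.25 and 0.15.

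Of 12 tested V-ATPase accessory and assembly genes 6 fell (50%) and 4 rose (33.3%), with a median difference of -0.07. Among genes that help the pump assemble, Wdr7 fell by 0.43 and Dmxl1 by 0.24. Dmxl2 was lower at 6.89 ± 0.01 in aged than 7.82 ± 0.12 in young cells (SD, n = 3 each), its aged level within the negative control range. Dmxl1 was named after its values were seen. Tmem199, which assists assembly, fell by 0.38. Apart from Tcirg1, Vma21, an assembly chaperone, rose by 0.34, and Rogdi was higher at 7.97 ± 0.07 in aged than 7.51 ± 0.04 in young cells (SD, n = 3 each), its young level within the negative control range.

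In the list of lysosomal hydrolases more genes rose than fell. Of 30 tested outside the cathepsins 17 rose (56.7%), 3 fell (10%) and 10 did not pass, beside 18.4% and 22.1% of all genes tested that rose and fell. The median difference was 0.19 beside 0.01 over all genes tested. Pla2g15, a lysosomal phospholipase, was at 9.61 ± 0.04 in aged and 8.59 ± 0.11 in young cells (SD, n = 3 each) and rose 2.02-fold (limma adjusted p = 1.46e-06). Galns, a sulfatase of keratan sulfate breakdown, rose 1.92-fold, and Lgmn, the asparagine-specific protease legumain, rose 1.79-fold. The 3 that fell were Galc, Hgsnat and Neu1, by 0.45, 0.33 and 0.27. Not every gene of the list encodes a hydrolase: Hgsnat encodes an acetyltransferase, and Gm2a and Psap encode activator proteins. The word hydrolases stands for the whole list in all counts. Tested against a minimum difference of 0.3, 9 genes of the list were higher. The list of lysosome membrane genes outside the members was mixed, with 9 of 20 higher (45%) and 5 lower (25%) and a median of 0.06. Its count of higher genes includes Npc2, which is not a membrane protein. Tmem175, an ion channel of the lysosome, and Npc2, the soluble partner of NPC1, rose by 0.67 and 0.61. Tpcn2, another channel, was higher at 7.79 in aged than 7.09 in young cells, its young level within the negative control range. Slc17a5, Clcn7 and Spns1, which carry sialic acid, chloride and lysophospholipids across the membrane, fell by 0.43, 0.30 and 0.26. Npc1 and Npc2, which hand cholesterol to each other, thus moved in opposite directions.

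**Figure D4:**
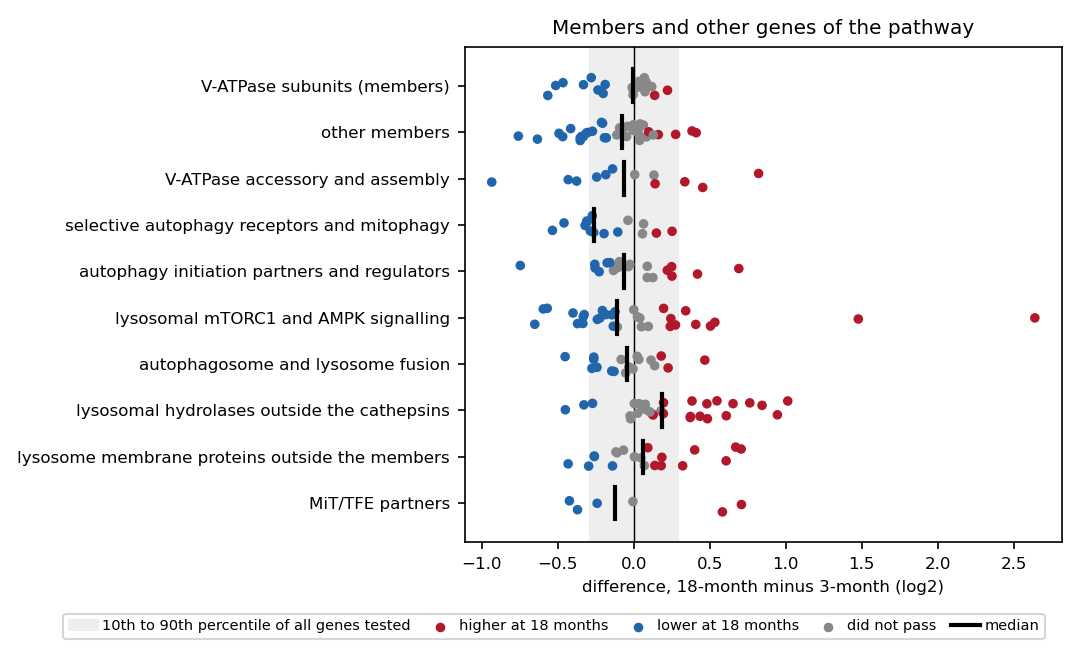
Difference between 18-month and 3-month arrays on the log2 scale (x axis) of each tested gene in the V-ATPase, the other members and 8 lists of further pathway genes (y axis); black bars are medians and the grey band spans the 10th to 90th percentile of all genes tested, -0.29 to 0.29. The median is lowest for the selective autophagy receptors at -0.26 and highest for the lysosomal hydrolases at 0.19.

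The kinase mTORC1, which sits on the lysosome and holds autophagy back when nutrients are plentiful, had parts and regulators that changed both ways. Of 31 tested genes of mTORC1 and AMPK signalling 15 fell (48.4%) and 10 rose (32.3%), with a median of -0.11. Deptor, an inhibitor of the mTOR kinase, was at 10.46 ± 0.01 in aged and 7.82 ± 0.12 in young cells (SD, n = 3 each) and rose 6.23-fold (limma adjusted p = 6.49e-09). Sesn1, a sestrin that restrains mTORC1, was higher at 8.83 ± 0.04 in aged than 7.35 ± 0.16 in young cells (SD, n = 3 each), its young level within the negative control range, and Tbc1d7, a subunit of the inhibitory TSC complex, rose by 0.53. Rragd, a Rag GTPase that brings mTORC1 to the lysosome, fell by 0.65, and Rictor, the defining subunit of mTORC2, fell by 0.60. Prkaa2, a catalytic subunit of AMPK, was lower at 5.70 in aged than 6.27 in young cells, both within the negative control range. Fnip1, which works with folliculin to control the Rag GTPases, fell by 0.37.

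Of 20 tested partners and regulators of initiation 6 fell (30%) and 5 rose (25%), with a median of -0.07. These shares were near the 29.1% and 22.3% among genes in the upper 30% of transcript clusters. Epg5, a tether that lets autophagosomes fuse with lysosomes, was 1.68-fold lower in aged cells (limma adjusted p = 8.66e-06), and Wdr45b, a relative of the WIPI proteins, and Tbk1, a kinase of cargo receptors, each fell by 0.26. Bcl2l1, which binds beclin, rose 1.61-fold, Trp53inp1 rose by 0.42 and Nrbf2, a subunit of the ATG14 complex, rose by 0.25. Among 18 tested genes of fusion 7 fell (38.9%) and 3 rose (16.7%), with a median of -0.04. Vps11, Vps16 and Vps18 of the tethering complexes fell by 0.45, 0.28 and 0.26, while Vps33b rose by 0.47 and the SNARE gene Vamp8 by 0.18. Rilp was higher at 7.13 in aged than 6.91 in young cells, both within the negative control range. Of 6 tested MiT/TFE partners 3 fell and 2 rose, with a median of -0.12. Ppp3cb, a catalytic subunit of calcineurin, fell by 0.42, and Ppargc1a, a coactivator of mitochondrial genes, was higher at 7.46 in aged than 6.76 in young cells, both within the negative control range. Zkscan3, a repressor of autophagy genes, was lower at 7.32 in aged than 7.56 in young cells, also within that range and not past the test when arrays were centred on positive controls (limma adjusted p = 0.0532).

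Markers of the cells were checked beside these results. Of 9 stromal markers measured 5 rose, 2 fell and 2 did not pass. Col1a1 was at 13.22 in aged and 12.43 in young cells, Vcam1 at 10.05 in aged and 9.05 in young cells and Cxcl12 at 9.87 in aged and 7.63 in young cells, the largest increases of that list. Itgb1 (CD29) fell by 0.10, a call whose sign turned under other scalings, and Nt5e was lower at 7.05 in aged than 7.58 in young cells. Nt5e, Thy1 (6.28 in aged and 6.31 in young cells) and Eng (6.60 in aged and 6.53 in young cells), which also mark stromal cells, lay within the negative control range in both ages. All 12 macrophage markers, Ptprc (CD45) and Itgam (CD11b) among them, lay within that range too, as did all 5 endothelial markers. Within it Fcer1g was higher at 5.71 in aged than 5.41 in young cells and Kdr at 6.62 in aged than 5.93 in young cells, and Tek was lower at 5.36 in aged than 5.57 in young cells (limma adjusted p = 0.0102, 1.33e-05 and 0.0384). The summed levels, taken on the linear scale over each list, were 26507 to 27050 in aged and 18558 to 18966 in young arrays for stroma, 671 to 702 in aged and 662 to 695 in young arrays for macrophages, and 234 to 243 in aged and 201 to 210 in young arrays for endothelium. Osteoclasts hold much V-ATPase and lysosomal enzyme. Of their 11 markers 9 lay within the negative control range, among them Calcr, Dcstamp, Ocstamp, Oscar and Atp6v0d2, and the other 2, Ctsk and Tcirg1, rose 1.97-fold and 1.77-fold. The summed level of the osteoclast list was 2740 to 2817 in aged and 1741 to 1834 in young arrays, and that of its 9 markers within the negative control range 688 to 703 in aged and 647 to 688 in young arrays. Osteoclasts derive from haematopoietic cells, and the part of any osteoclasts in the hydrolase results was not tested.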

How the data were processed

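Each probe set has 1 value per array, as deposited by the authors, and its log2 scale was inferred from the range of the values. MAS5, with no version, is named in the submitters' processing notes, and background correction, scaling and summarisation settings are not given in the sources used here. Groups and replicate numbers came from the sample titles. The table held 72688 probe sets, and 31258 of the 32750 listed in the platform annotation had 1 symbol after an update through the RefSeq table of assembly GRCm38.p6. Per gene the probe set with the highest mean of 6 arrays was kept (30701 genes), and genes with a mean below the median transcript cluster, 5.40, were left out, which kept 20190. Aged and young arrays were compared with limma 3.58.1 in R 4.3.3 (lmFit, and eBayes with an intensity trend) with Benjamini-Hochberg adjustment over all 20190. For 1 gene, 3 arrays against 3 allow an exact permutation p (two-sided) no smaller than 0.1. The young mean was subtracted from the aged one, folds are its antilog, and errors are SDs of 3 arrays. The number of arrays limits the precision.

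The members, lists and tests were chosen with earlier results of these data known. Every member may be named. Per role and direction, up to 3 members past the test have full values, and per list and direction the 3 largest differences past the test are named. Alternative settings covered normalization (quantile, median centring and, chosen after seeing the data, positive control centring). For the filter, the alternatives were none or the upper 30% of transcript clusters by level. Others were averaging a gene's probe sets, the variance model (no trend, robust), a replicate block, a minimum difference of 0.3 and omission of each array. Same-numbered arrays of both ages did not deviate together (correlations of deviations from the age means -0.048, 0.067 and 0.015), so the numbers were not taken to pair arrays. The test was checked on simulated data. Figures were drawn with matplotlib 3.10.9.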

Additional observations from a re-analysis of the deposited data

How the results depend on the processing

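Of the 31 members past the test, 23 kept direction and call under every alternative other than the minimum difference; the exceptions were Uvrag, Atg101, Atg2a, Atg16l1, Atp6v1e1, Atp6v1g2, Atp6v0d1 and Lamp2. Leaving out each array gave 6717 to 9291 called genes (3006 to 4328 higher and 3711 to 4963 lower), 26 to 34 called members (5 to 9 higher and 21 to 26 lower), 8 to 8 lower V-ATPase subunits, 13 to 18 other lower members and 15 to 22 higher hydrolases. The minimum difference of 0.3 gave 1985 genes (1169 higher and 816 lower), 7 members (0 higher and 7 lower, where limma without a minimum had 7 higher), 3 lower V-ATPase subunits, 4 other lower members and 9 higher hydrolases; fewer calls follow from its construction. Centring on positive controls gave 6619 higher and 2672 lower genes, 71.2% of calls higher beside 45.4% on the values as deposited, and 20 higher members, 51.3% of member calls beside 22.6%; the cause was not tested. With the replicate block, where the numbers are not known to pair arrays, 7728 genes and 29 members passed, 5 higher and 24 lower.

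Some members that did not pass changed sign. Of these, Atg4d, Atp6v0e2 and Atp6v1b1 lay within the negative control range in both ages, and their differences are given for their sign only. Under quantile normalization the differences were -0.013 for Ulk2, 0.0091 for Map1lc3a, 0.0097 for Map1lc3b, 0.0079 for Atp6v1f, 0.0286 for Atp6v0e and 0.0262 for Atp6v0e2, and that of Itgb1, called lower as deposited, was 0.0133. Under median centring they were 0.0169 for Map1lc3a, 0.0154 for Map1lc3b, 0.0142 for Atp6v1f, 0.0162 for Atp6v0e and 0.0081 for Atp6v0e2. Centred on positive controls they were 0.072 for Becn1, 0.0019 for Atg12, 0.0362 for Atg4d, 0.1118 for Map1lc3a, 0.1103 for Map1lc3b, 0.0662 for Gabarap, 0.109 for Atp6v1f, 0.111 for Atp6v0e, 0.1029 for Atp6v0e2, 0.0204 for Tfe3 and 0.0157 for Itgb1, and of these Becn1, Atp6v1f and Atp6v0e passed as higher (limma adjusted p = 0.0409, 0.025 and 0.0108). Members not called as deposited that passed under quantile normalization were Atg12 and Tfe3, lower, and Atg4b, Atp6v0a2 and Lamp1, higher (limma adjusted p = 0.0461, 0.03, 0.0384, 0.00619 and 0.0401). With each array left out the ranges were -0.0278 to 0.0325 for Ulk2, -0.008 to 0.0939 for Atg9a, -0.0056 to 0.0843 for Atg7, -0.0264 to 0.0275 for Map1lc3a, -0.0208 to 0.0085 for Map1lc3b, -0.013 to 0.1037 for Atp6v1b1, -0.0149 to 0.0078 for Atp6v1f, -0.0346 to 0.0384 for Atp6v0e and -0.0579 to 0.0444 for Atp6v0e2. The deposited table gives no detection calls, so signal over background rests on the control probe sets.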

Other observations

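Uvrag had a second, dimmer probe set at 5.25, 5.57 and 5.42 in aged cells and 5.48, 5.13 and 5.42 in young cells, within the negative control range. A probe set that names both Atg4a and the pseudogene Atg4a-ps, and so was not used, read 6.39, 6.50 and 6.27 in aged cells and 5.94, 6.14 and 6.04 in young cells. Among the young arrays, replicate 1 was the highest in 30 of the 57 tested members (52.6%) and in 43.8% of all genes tested.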
